A study of Arabidopsis thaliana with 6 samples.

Results

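The 43 Arabidopsis thaliana genes that encode histones H1, H2A, H2B, H3.1, H3.3 and H4 were compared between germinating seeds of the wild type and of the scl30a-1 mutant. They were taken by locus identifier from a table of 33602 loci, with no histone-modifying enzyme among them. By class, 27 were replication-coupled genes (8 for H4, 5 for H3.1, 4 for core H2A and 10 for H2B), 13 were variant genes (3 for H3.3, 2 for H2A.X, 3 for H2A.W, 4 for H2A.Z and the seed H2B variant HTB8) and 3 encoded the linker histone H1. The wild type (WT) was Col-0, and scl30a-1 is a mutant line for SCL30a (AT3G13570), a serine/arginine-rich protein of the family that binds RNA and takes part in splicing. All seeds, in batches of 50 mg, had spent 3 days at 4 °C on MS medium and then 18 h at 21 °C in continuous white light of 100 µmol/m2. Polyadenylated RNA was sequenced from 3 biological libraries of each genotype, lettered a, b and c. A single mutant line was used, so that the allele and anything else that differs between the seed stocks cannot be told apart.

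Histones package DNA into nucleosomes, in which pairs of H2A, H2B, H3 and H4 form the core and H1 binds the linker. In plants, core genes such as those for H3.1 and H4 are transcribed mainly in S phase and their products are deposited behind the replication fork, whereas H3.3 and H2A.Z are made and exchanged outside replication. H2A.X marks damaged DNA when phosphorylated, H2A.W is found in heterochromatin, and HTB8 is an H2B variant of seeds. Plant histone mRNAs carry poly(A) tails, so that they are captured in libraries of this kind. Dry seeds hold cells that mostly stopped before S phase, and DNA replication resumes as germination proceeds.

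The libraries held 70687361 to 85605647 counted reads each, and the histone genes took 0.211% to 0.237% of them. SCL30a itself had 6890, 7290 and 8425 counts in WT a, b and c, against 478, 440 and 458 in scl30a-1 a, b and c, in the direction the genotype labels give. Markers of the seed, listed by locus, were present in all libraries: the oil-body protein gene OLEO1, the storage protein genes CRA1 and CRC, the glyoxylate cycle genes ICL and MLS, and the endosperm genes EXPA2, EPR1 and MAN7. Whether a lower level in such whole-seed RNA comes from fewer cells of a type or from less RNA per cell cannot be told apart. The labels call the libraries biological triplicates without saying how seed batches were separated. The p-values therefore set the difference between genotypes against the spread between these libraries only.

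Levels within a gene are given as CPM, counts per total scaled by the composition factors of edgeR (TMM), and levels between genes as RPKM, the CPM divided by the length of the longest RefSeq transcript in kilobases. By RPKM averaged over the 6 libraries, the H3.3 genes and a single H2B gene stood at the top. AT4G40040 (H3.3) averaged 311 RPKM, AT5G10980 (H3.3) 269, HTB4 (H2B) 257 and AT4G40030 (H3.3) 221. HTB4 and AT5G10980 overlapped between libraries and are not ordered by these data. HTA9, an H2A.Z gene, followed with 139 and the H1 gene AT1G06760 with 98.6. HIS1-3, at 11.3, ranked 33rd and HTB8, at 7.68, ranked 36th of 43 by this mean over both genotypes. By genotype, HIS1-3 averaged 4.67 RPKM in WT and 17.9 in scl30a-1, and HTB8 2.90 and 12.5. At the bottom stood HTA12 (1.53), AT3G53650 (0.744) and AT5G02570 (0.388). HTA4 had 0 counts in all libraries, which allows at most 0.0345 to 0.0420 CPM (3 counts in each library, counting error only), and it was not tested.

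**Figure D1:**
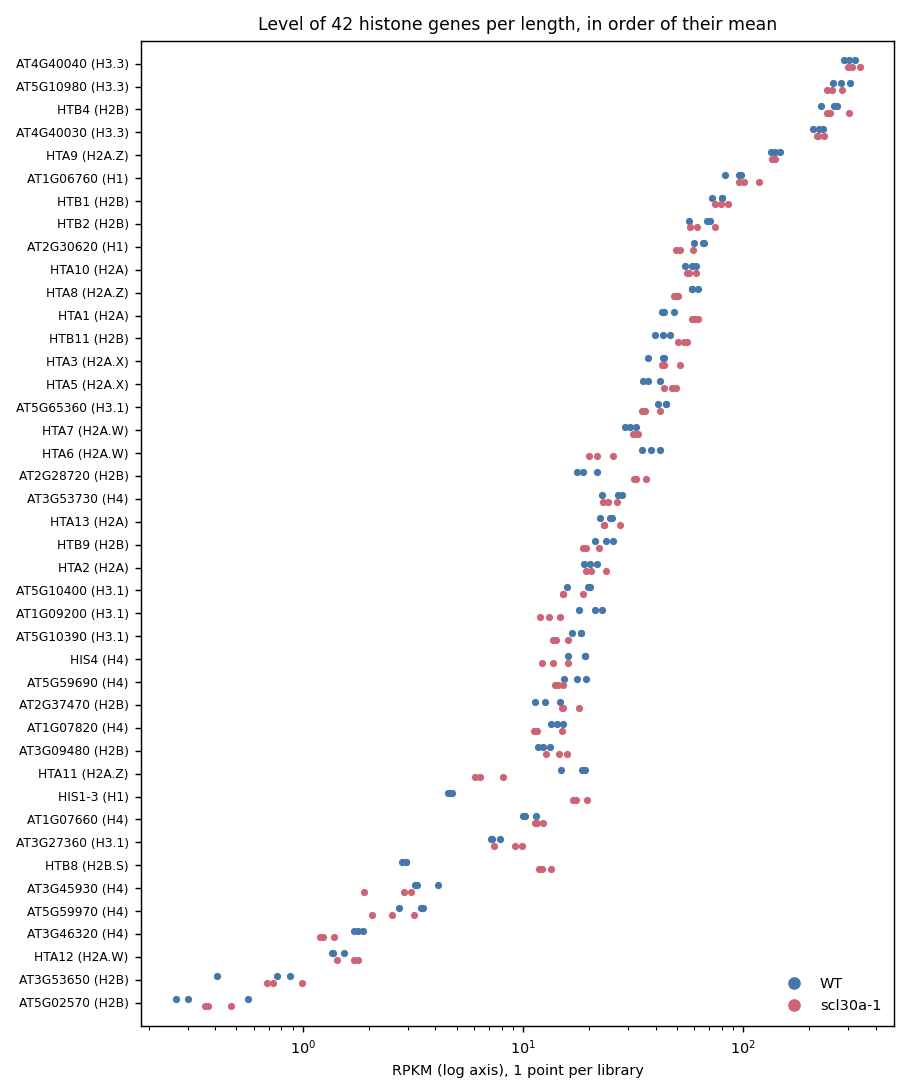
Level per length (RPKM, log axis) of the 42 histone genes with reads, 1 point per library, WT in blue and scl30a-1 in red, ordered by the mean over the 6 libraries. The H3.3 genes and HTB4 average 221 to 311 RPKM, while the separated colours of HTB8, HIS1-3 and HTA11 lie in the lower part of the order.

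Of the 42 histone genes tested, 18 were called changed (edgeR quasi-likelihood test, Benjamini-Hochberg adjusted p under 0.05 over 18736 genes), 7 higher and 11 lower in scl30a-1. Over all genes tested, 7806 (41.7%) were called, 4106 (21.9%) higher and 3700 (19.7%) lower, so that histone genes were called about as often as genes at large. That split of all genes was 3119 higher and 4589 lower without composition scaling, and 2961 and 5258 with upper-quartile scaling. The median log2 fold change of the histone genes was 0.03, beside 0.003 for all genes. For 16 of the 42 the libraries of the genotypes did not overlap in CPM, against 52.1% of all genes. HTB8, HIS1-3 and HTA11 were called with a change of at least 2-fold, which held for 5.75% of all genes. The lower calls varied with the library left out. Without WT b 6 genes were higher and 4 lower, without WT a 7 and 7, and without scl30a-1 a 8 and 4. Without WT c they were 6 and 12, without scl30a-1 b 6 and 14, and without scl30a-1 c 8 and 9. Among all genes, lower calls without WT b, WT a and scl30a-1 a were 2714, 3069 and 2828, against 3700 with all libraries. Without WT c, scl30a-1 b and scl30a-1 c they were 3660, 3895 and 3191.

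By class, replication-coupled and variant genes were called in like shares and with medians near 0. Among the 27 replication-coupled genes, 4 were higher and 7 lower, with a median log2 fold change of -0.01 and a range from -0.64 to 0.80. Of the 12 variant genes tested, 2 were higher and 3 lower, with a median of 0.04 and a wider range, from -1.36 to 2.10. The summed level of the replication-coupled genes was 871, 839 and 746 CPM in WT a, b and c and 795, 946 and 822 CPM in scl30a-1 a, b and c. For the variant genes the sums were 1244, 1176 and 1097 CPM in WT and 1128, 1238 and 1138 CPM in scl30a-1. Both sums overlapped between genotypes, with mutant to WT ratios of 1.04 and 0.996. Without WT b, 4 replication-coupled genes were called (3 higher, 1 lower), without WT a 7 (4 and 3) and without scl30a-1 a 6 (5 and 1). Without WT c they were 11 (3 and 8), without scl30a-1 b 13 (3 and 10) and without scl30a-1 c 10 (5 and 5). The count of called variant genes stayed at 5 whichever library was left out.

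**Figure D2:**
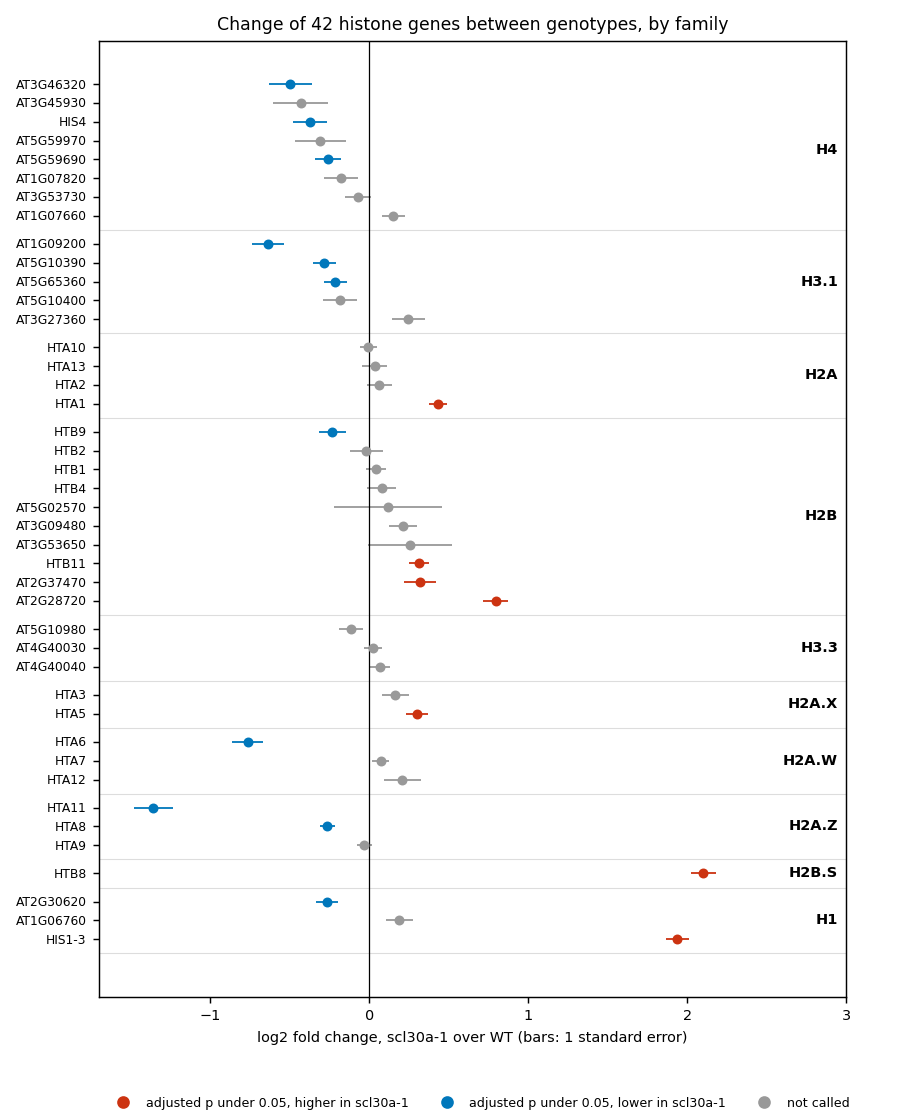
Log2 fold change (scl30a-1 over WT) of the 42 tested histone genes by family, points with 1 standard error from the edgeR fit on 3 libraries per genotype, red for called higher, blue for called lower and grey for not called. H4 and H3.1 hold blue points only among those called, H2A, H2A.X and H2B mainly red ones, and HTB8, HIS1-3 and HTA11 lie farthest from 0.

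The genes for H4, the partner of H3 in the nucleosome core, were called lower where they were called at all, in 3 of 8. That is 37.5%, beside 19.7% called lower among all genes tested. Fold changes of 7 of the 8 lay below 0, with a family median of -0.28, and none of the 8 changed sign under any alternative run. AT3G46320 was at 1.15, 1.21 and 1.104 CPM in WT a, b and c and at 0.772, 0.793 and 0.889 CPM in scl30a-1 a, b and c. These rest on few reads, 82 to 96 counts in WT and 61 to 69 in scl30a-1. All WT libraries lay above all mutant libraries, with a log2 fold change of -0.50 (SE 0.133, adjusted p = 0.0135). HIS4 (AT2G28740) was at 13.7, 13.7 and 11.4 CPM in WT and at 8.68, 11.5 and 9.76 CPM in scl30a-1. The highest mutant library, b, lay just above the lowest WT library, c, and the change was -0.37 (SE 0.107, adjusted p = 0.0178). For AT5G59690 the values were 14.4, 13.1 and 11.5 CPM in WT and 10.8, 11.4 and 10.4 CPM in scl30a-1. These did not overlap but nearly touched, with a change of -0.26 (SE 0.0825, adjusted p = 0.0298). The most abundant H4 gene, AT3G53730, was at 31.9, 30.7 and 25.7 CPM in WT and at 26.1, 30.4 and 27.5 CPM in scl30a-1, and at -0.07 it was not called. Changes of the remaining H4 genes, none of them called, were -0.43 for AT3G45930, -0.31 for AT5G59970, -0.18 for AT1G07820 and 0.15 for AT1G07660. AT3G46320 was not called without WT b or scl30a-1 a, and HIS4 and AT5G59690 were not called when any of WT a, WT b, scl30a-1 a or scl30a-1 c was left out.

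Several H4 genes are near copies, which limits how reads could be assigned to them. Of the 36-base words in the transcripts, 32.8% in AT3G46320, 12.7% in AT5G59690 and 0.29% in HIS4 also occur in transcripts of other genes (RefSeq annotation, TAIR10.1). How the counting treated such reads is not given in the sources used here, so the values of AT3G46320 and AT5G59690, 2 of the 3 H4 genes called, are uncertain. Summed over the 8 genes, H4 was at 90.2, 84.6 and 75.7 CPM in WT and at 69.4, 78.2 and 76.2 CPM in scl30a-1. The sums overlapped, since WT c lay below scl30a-1 b and c.

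H3.1, the H3 form deposited at replication, was called lower in 3 of 5 genes (60%, beside 19.7% called lower among all genes tested). AT1G09200 (chr1:2971571-2972334, minus strand, 1 exon, TAIR10.1) was at 16.2, 17.4 and 13.7 CPM in WT and at 9.10, 11.3 and 10.01 CPM in scl30a-1. Each WT library lay above each mutant library, at 778 to 868 counts in the mutant and 1160 to 1332 in WT, and the log2 fold change was -0.64 (SE 0.1002, adjusted p = 0.000702). AT5G10390 was at 12.9, 12.9 and 11.7 CPM in WT and at 9.65, 11.3 and 9.91 CPM in scl30a-1, again with no overlap and with a change of -0.28 (SE 0.0741, adjusted p = 0.0121). The most abundant gene of the family, AT5G65360, was at 32.4, 32.4 and 29.6 CPM in WT and at 26.0, 30.4 and 25.0 CPM in scl30a-1. Here the mutant library b reached into the WT range, and the change was -0.21 (SE 0.0746, adjusted p = 0.0422). The other two were not called, with -0.18 for AT5G10400 and 0.25 for AT3G27360, which overlaps a neighbouring gene on the same strand. Leaving out WT b or scl30a-1 a ended the call of AT5G10390, and leaving out any of WT a, WT b, scl30a-1 a or scl30a-1 c ended that of AT5G65360. AT1G09200 was called in all 13 alternatives, between -0.74 and -0.56. Summed over the 5 genes, H3.1 was at 83.7, 84.5 and 73.6 CPM in WT and at 62.8, 75.9 and 64.5 CPM in scl30a-1. The sums overlapped, since WT c lay below scl30a-1 b.

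The promoter of AT1G09200, the H3.1 gene with the largest change, and that of the H2A.W gene HTA6, described below, are printed because they carry the histone octamer, a promoter motif of plant histone genes. The 250 bases before the gene start are shown on the gene's strand (chr1:2972335-2972584 and chr5:24116221-24116470, both minus strand, RefSeq, TAIR10.1), with capitals marking CGCGGATC.
AT1G09200: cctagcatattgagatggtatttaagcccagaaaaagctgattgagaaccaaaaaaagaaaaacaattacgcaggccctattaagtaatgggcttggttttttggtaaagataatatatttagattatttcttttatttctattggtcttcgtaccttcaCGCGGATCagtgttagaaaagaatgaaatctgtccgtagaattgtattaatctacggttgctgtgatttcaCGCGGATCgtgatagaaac
HTA6: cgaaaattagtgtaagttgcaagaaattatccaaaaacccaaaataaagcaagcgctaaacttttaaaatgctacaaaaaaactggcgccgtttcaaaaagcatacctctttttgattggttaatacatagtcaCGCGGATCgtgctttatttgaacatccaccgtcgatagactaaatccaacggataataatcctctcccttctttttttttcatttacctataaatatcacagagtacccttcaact
The motif was searched as CGCGGATC on both strands and in no histone gene did it overlap another motif searched. It lay in the promoters of 37 of 27443 protein-coding genes (0.135%), 10 of which were histone genes (23.3% of the 43). These were 3 of 5 H3.1 genes, 2 of 8 H4 genes, 2 of 4 core H2A genes, AT4G40040, HTA6 and AT1G06760, and none of the 10 H2B genes. Of the 10, 4 (40%) were called, beside 41.7% of all genes tested. All 4 were lower (AT1G09200, AT5G65360, AT5G59690 and HTA6). AT5G65360 and AT5G59690 lost the call when any of WT a, WT b, scl30a-1 a or scl30a-1 c was left out. Fold changes of 4 of the 10 lay above 0 and of 6 below, with a median of -0.10. Among the 32 tested histone genes without the motif, 7 were higher and 7 lower (43.75% called). Among the other 27 genes with the motif, 19 were tested, 2 were higher and 5 lower (36.8% called). A match describes these letters in this window and not a bound site.

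Core H2A genes were near their WT level except HTA1, which was higher. HTA1 (AT5G54640) was at 41.6, 37.4 and 36.8 CPM in WT and at 51.9, 53.8 and 50.4 CPM in scl30a-1. All mutant libraries lay above all WT libraries, with a log2 fold change of 0.43 (SE 0.0560, adjusted p = 0.000203), called in all 13 alternatives. HTA10 was at 51.5, 48.9 and 45.8 CPM in WT and at 47.7, 51.0 and 46.9 CPM in scl30a-1, with a change of -0.01 (95% interval -0.13 to 0.12). Over the 6 libraries it had the highest mean RPKM of the core H2A genes, 58.0 against 52.8 for HTA1. In scl30a-1 alone HTA1 was the higher of these genes, with a mean of 60.6 RPKM against 57.8 for HTA10. HTA2 and HTA13 were not called either, at 0.06 and 0.03.

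H2B, which pairs with H2A, was called in 4 of 10 replication-coupled genes, 3 higher and 1 lower. That is 40% called, beside 41.7% of all genes tested. AT2G28720 (chr2:12326808-12327808, plus strand, 1 exon, TAIR10.1) was at 21.7, 18.7 and 17.7 CPM in WT and at 32.5, 36.2 and 32.1 CPM in scl30a-1. The mutant libraries held 2492 to 2780 counts and the WT libraries 1434 to 1551, and the change was 0.80 (SE 0.0786, adjusted p = 3.21e-05), a 1.74-fold higher level. HTB11 was at 34.7, 32.4 and 29.6 CPM in WT and at 37.9, 40.5 and 41.7 CPM in scl30a-1, without overlap and with a change of 0.31 (SE 0.0643, adjusted p = 0.00345). AT2G37470 was at 14.8, 12.6 and 11.3 CPM in WT and at 15.0, 18.0 and 15.3 CPM in scl30a-1. Its highest WT library, a, nearly met its lowest mutant library, also a, and the change of 0.32 (SE 0.102, adjusted p = 0.0294) was not called with upper-quartile scaling or without WT b, WT c or scl30a-1 b. HTB9 was called lower, at -0.23 (SE 0.0845, adjusted p = 0.0491). Loci on the opposite strand overlap HTB9, 37.0% of its words occur elsewhere (10.7% in loci of the count table), and it was not called without WT a, WT b, scl30a-1 a or scl30a-1 c. HTB4, by far the most abundant H2B gene, was at 343, 332 and 291 CPM in WT and at 309, 391 and 320 CPM in scl30a-1, overlapping, with a change of 0.08 (95% interval -0.13 to 0.28). The remaining H2B genes were not called: HTB1 (0.04), HTB2 (-0.02), AT3G09480 (0.21), AT3G53650 (0.26) and AT5G02570 (0.12). AT5G02570 lies wholly within the transcribed region of HTA12 on the other strand, so that their reads cannot be told apart without strand.

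HTB8 (AT1G08170, chr1:2562769-2563706, minus strand, 1 exon, TAIR10.1), the H2B variant of seeds, showed the largest increase of the 42 histone genes. It had 198, 212 and 229 counts in WT a, b and c and 974, 968 and 858 counts in scl30a-1 a, b and c. In CPM these were 2.77, 2.77 and 2.63 in WT and 11.4, 12.6 and 11.1 in scl30a-1. The WT libraries were close to each other, and each mutant library lay about 4 times above them, with a log2 fold change of 2.10 (SE 0.0785, adjusted p = 2.90e-08), or 4.29-fold. That change was the 182nd highest of 18736 genes. HTB8 made up 0.572% ± 0.0329 (SD, n = 3) of the summed H2B RPKM in WT and 2.23% ± 0.107 (SD, n = 3) in scl30a-1.

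HIS1-3 (AT2G18050, chr2:7845923-7847031, plus strand, 2 exons, TAIR10.1), a linker histone gene known to be induced by drought and abscisic acid, changed by nearly as much. It had 327, 344 and 382 counts in WT and 1425, 1437 and 1259 counts in scl30a-1. Scaled, these were 4.58, 4.49 and 4.39 CPM against 16.7, 18.7 and 16.2 CPM. The genotypes were far apart, with a log2 fold change of 1.94 (SE 0.0723, adjusted p = 2.88e-08), or 3.83-fold, the 217th highest of all genes. HTB8 and HIS1-3 kept their calls in all 13 alternatives, with 2.03 to 2.13 and 1.87 to 1.97. Neither transcript shares a 36-base word with another gene.

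Of the 8 seed markers, 5 (62.5%) were called, all of them higher in scl30a-1. Among all genes tested, 41.7% were called and 21.9% were called higher. The markers were listed with earlier results of these data known. CRC, CRA1 and OLEO1 were higher by 3.02 (SE 0.0966, adjusted p = 1.32e-08), 2.92 (SE 0.104, adjusted p = 2.20e-08) and 2.59 (SE 0.0955, adjusted p = 2.79e-08) on the log2 scale, in all mutant libraries over all WT libraries. In WT a, b and c CRC was at 423, 367 and 345 CPM, CRA1 at 663, 583 and 516 and OLEO1 at 172, 139.5 and 135. In scl30a-1 a, b and c the same genes were at 2932, 3394 and 2888 CPM, at 4208, 4888 and 4255 and at 874, 961 and 862. EPR1 and MAN7 were the other called markers, and none of the 8 was at 0. Their summed level was 9558 to 11034.5 RPKM in the WT libraries and 14644 to 17046.5 in the mutant libraries. The sum of OLEO1, CRA1 and CRC was 631 to 799 against 4957 to 5705 RPKM. That of the endosperm genes EXPA2, EPR1 and MAN7 was 1339 to 1455 against 1677 to 1823 RPKM. Most of the endosperm sum was EXPA2, with means of 1266 RPKM in WT and 1375 in scl30a-1. EPR1 averaged 96.6 and 306 RPKM, and MAN7 47.0 and 67.1. ICL (-0.04), MLS (0.14) and EXPA2 (0.12) were not called. The part of seed or endosperm RNA in the levels of HTB8 and HIS1-3 was not tested.

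The promoters of HTB8 and HIS1-3, the genes with the largest increases, are shown with capitals marking the abscisic acid response element (chr1:2563707-2563956, minus strand, and chr2:7845673-7845922, plus strand, RefSeq, TAIR10.1).
HTB8: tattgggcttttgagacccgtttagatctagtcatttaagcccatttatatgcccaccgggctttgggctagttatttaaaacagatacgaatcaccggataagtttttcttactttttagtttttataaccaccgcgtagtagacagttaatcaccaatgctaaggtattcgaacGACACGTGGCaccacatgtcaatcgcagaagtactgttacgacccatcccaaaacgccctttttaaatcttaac
HIS1-3: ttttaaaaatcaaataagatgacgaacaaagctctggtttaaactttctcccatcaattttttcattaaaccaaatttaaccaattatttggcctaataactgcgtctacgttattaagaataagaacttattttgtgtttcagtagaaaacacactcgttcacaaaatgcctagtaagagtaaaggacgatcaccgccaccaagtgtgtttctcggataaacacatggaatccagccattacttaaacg
The element was searched as ACGTGGC and ACGTGTC on both strands. HTB8 held overlapping matches with their first bases at -74 and -71 from the gene start, while no match lay in this window of HIS1-3. It was found before 1753 of 27443 protein-coding genes (6.39%) and before 6 of the 43 histone genes (14%), namely HTB8, AT5G10980 and 4 H2B genes. Of these 6, HTB8 and AT2G37470 were called higher, HTB9 lower and the others not at all. The called genes were 50% of the 6, beside 41.7% of all genes tested. The RY element of seed promoters, CATGCATG, lay before 0.776% of protein-coding genes and before none of the histone genes. E2F sites, searched on both strands as TTTCCCGC, TTTGGCGC, TTTCGCGC and TTTGCCGC, lay before 387 genes (1.41%), among them AT3G45930, AT3G46320 and HTB2.

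**Figure D3:**
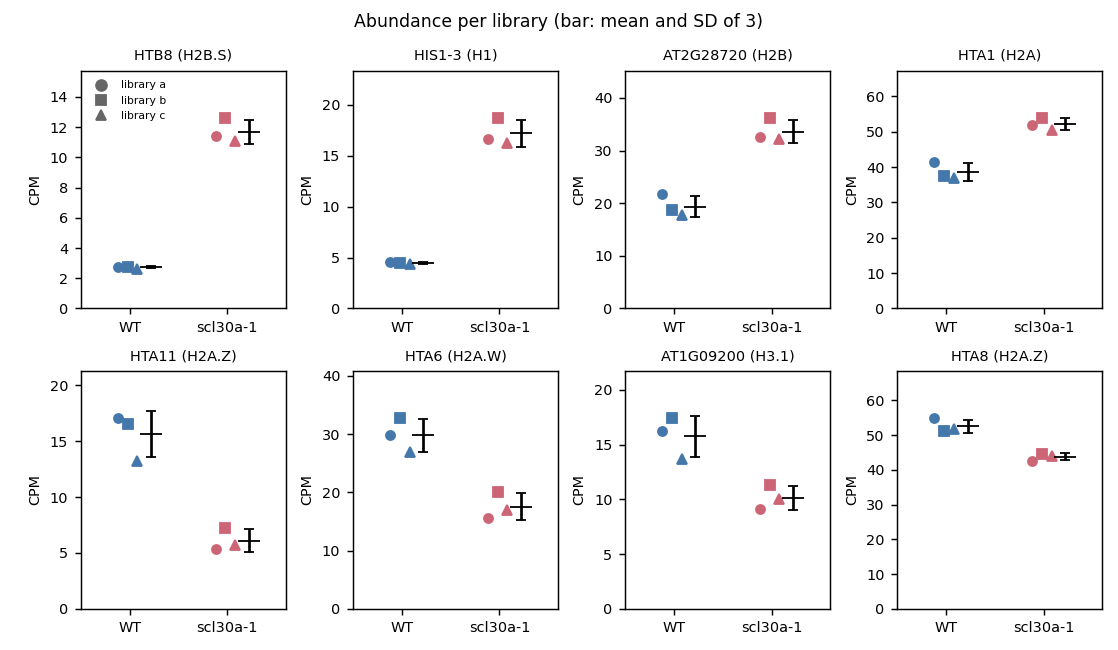
CPM in each library for 8 histone genes, circles, squares and triangles for libraries a, b and c, with the mean and SD of 3 beside each genotype, all axes from 0. HTB8 and HIS1-3 rise from about 3 and 4 CPM to 12 and 17 CPM, HTA11 drops from 15.6 to 6.095 CPM, and the libraries of the genotypes are apart in all 8 panels. The 8 genes shown are among the 16 of 42 tested histone genes without overlap, so that the panels do not stand for the others. Of all genes tested, 52.1% did not overlap.

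Among the other linker genes, AT2G30620 was lower and AT1G06760 was not called. AT2G30620 was at 111, 109 and 99.8 CPM in WT and at 82.3, 98.2 and 85.8 CPM in scl30a-1. The genotypes did not overlap, though WT c and scl30a-1 b nearly met, and the change was -0.27 (SE 0.0708, adjusted p = 0.0132), a call lost without WT b or scl30a-1 a. AT1G06760 was at 111, 114 and 95.9 CPM in WT and at 117, 137 and 111 CPM in scl30a-1, with a change of 0.19 (SE 0.0868, adjusted p = 0.108), and 40.0% of its words occur elsewhere, all of them in a locus on the opposite strand that is not in the count table used here. In the make-up of H1 mRNA by RPKM, HIS1-3 went from 2.91% ± 0.172 to 10.2% ± 0.262 and AT2G30620 from 39.9% ± 0.873 to 30.3% ± 0.997 (SD, n = 3 each). AT1G06760 kept the largest share, 57.2% ± 1.03 in WT and 59.6% ± 1.07 in scl30a-1.

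H2A.Z, a variant exchanged into promoter nucleosomes, was called lower in 2 of the 3 genes tested. That is 66.7%, beside 19.7% called lower among all genes tested. HTA11 (AT3G54560, chr3:20196140-20197726, plus strand, 3 exons, TAIR10.1) had 1218, 1271 and 1154 counts in WT and 459, 557 and 440 counts in scl30a-1. That is 17.0, 16.6 and 13.3 CPM in WT against 5.37, 7.24 and 5.67 CPM in scl30a-1. No mutant library came near the WT range, and the log2 fold change of -1.36 (SE 0.124, adjusted p = 1.84e-05), or 2.56-fold lower, was the 250th lowest of all genes. HTA8 was at 54.8, 51.2 and 51.6 CPM in WT and at 42.6, 44.6 and 43.9 CPM in scl30a-1, separate in all libraries, with a change of -0.27 (SE 0.0464, adjusted p = 0.00137). HTA9, the main H2A.Z gene, was at 124, 117 and 112 CPM in WT and at 115, 114 and 118 CPM in scl30a-1. Its change was -0.03 (95% interval -0.14 to 0.08), and it supplied 64.4% ± 0.0259 of H2A.Z RPKM in WT and 70.8% ± 1.04 in scl30a-1 (SD, n = 3 each). The share of HTA11 went from 8.05% ± 0.757 to 3.53% ± 0.577 (SD, n = 3 each).

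H2A.W was lower in HTA6 and not called in the other two genes. HTA6 (AT5G59870, chr5:24115354-24116220, minus strand, 2 exons, TAIR10.1), whose promoter with the octamer is printed above, was at 29.8, 32.7 and 27.0 CPM in WT and at 15.6, 20.0 and 16.9 CPM in scl30a-1. The genotypes were well apart, with a change of -0.77 (SE 0.0954, adjusted p = 0.000154), or 1.70-fold lower. HTA7 was at 30.9, 28.9 and 27.5 CPM in WT and at 30.2, 30.0 and 31.4 CPM in scl30a-1, with a change of 0.07 (95% interval -0.05 to 0.19). HTA6 supplied 54.2% ± 2.20 of H2A.W RPKM in WT and 39.8% ± 3.24 in scl30a-1, HTA7 43.7% ± 2.05 and 57.3% ± 3.28 (SD, n = 3 each). HTA12 was low and at 0.21 not called. HTA11, HTA8 and HTA6 share no 36-base word with other transcripts and were called in all 13 alternatives.

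H2A.X was higher in HTA5, at 46.1, 41.0 and 38.8 CPM in WT and at 52.2, 54.6 and 48.1 CPM in scl30a-1. The genotypes did not overlap, and the change was 0.30 (SE 0.0704, adjusted p = 0.00715). HTA3 was at 35.0, 34.5 and 29.5 CPM in WT and at 34.2, 41.4 and 35.1 CPM in scl30a-1, overlapping, with a change of 0.16 (95% interval -0.03 to 0.35), and 57.0% of its words occur elsewhere (30.3% in loci of the count table). In the RPKM of all H2A genes, H2A.Z made up 42.3% ± 0.555 in WT and 38.2% ± 1.43 in scl30a-1, and H2A.W 13.7% ± 0.517 and 11.1% ± 0.265. H2A.X made up 15.4% ± 0.426 and 18.3% ± 0.795, and core H2A 28.7% ± 0.235 and 32.4% ± 0.691 (SD, n = 3 each). For these 4 shares the libraries of the genotypes did not overlap, but the 4 add up to the whole and do not move independently.

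**Figure D4:**
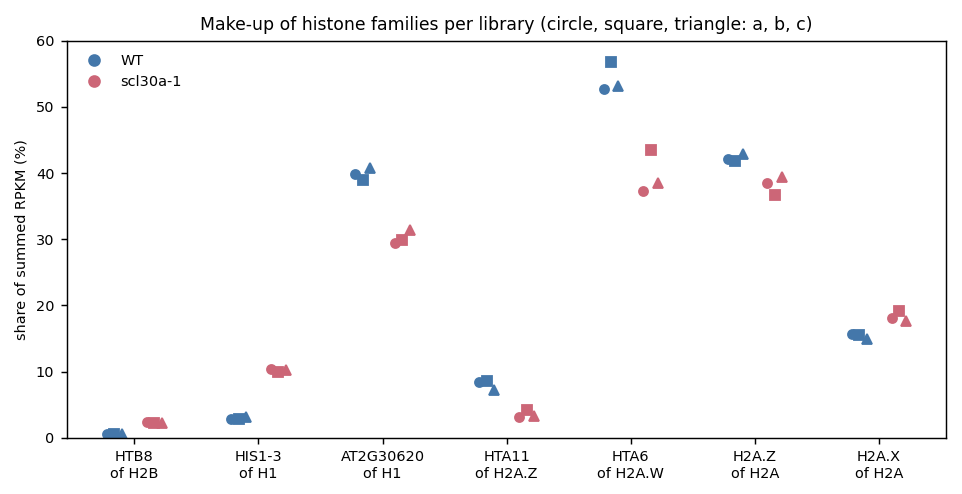
Share of a gene or variant in the summed RPKM of its family (percent, axis from 0), 1 point per library, WT in blue and scl30a-1 in red, circles, squares and triangles for libraries a, b and c. HTB8, HIS1-3 and H2A.X take larger shares in scl30a-1, and AT2G30620, HTA11, HTA6 and H2A.Z smaller ones, with no overlap of libraries in any pair. The shares shown were chosen from those computed. Shares of a family add up to the whole, so a share can move without a change of its own gene. HTA9 went from 64.4% to 70.8% of H2A.Z at a log2 fold change of -0.03.

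H3.3, the H3 form used outside replication, was not called in any of its 3 genes. AT4G40040 was at 414, 390.2 and 370.0 CPM in WT and at 388, 438 and 403 CPM in scl30a-1, with a change of 0.07 (95% interval -0.07 to 0.21). AT4G40030 was at 238, 230.2 and 214 CPM in WT and at 225, 243 and 226 CPM in scl30a-1, with a change of 0.02 (95% interval -0.10 to 0.15). AT5G10980 was at 249.7, 229 and 209 CPM in WT and at 206, 230.4 and 197 CPM in scl30a-1, with a change of -0.12 (95% interval -0.29 to 0.06). The genotypes overlapped for all 3 genes. H3.3 made up 88.1% ± 0.420 of the RPKM of H3.1 and H3.3 together in WT and 89.8% ± 0.382 in scl30a-1 (SD, n = 3 each), with the libraries of the genotypes apart.

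Among 25 genes for histone chaperones and exchange complexes, which load histones onto DNA, 7 were called higher and 2 lower, with a median log2 fold change of 0.06. Together these calls were 36% of the list, beside 41.7% of all genes tested. FAS1 and ASF1B were the list's only lower calls. FAS1, a subunit of the factor that places H3.1 and H4 behind the fork, was at 9.22, 10.3 and 10.99 CPM in WT and at 6.89, 7.10 and 7.09 CPM in scl30a-1 (-0.54, SE 0.0754, adjusted p = 0.000348). ASF1B, which hands over H3 with H4, was at 21.5, 21.9 and 19.5 CPM in WT and at 16.3, 16.1 and 16.3 CPM in scl30a-1 (-0.37, SE 0.0571, adjusted p = 0.000646). NRP2, a chaperone of H2A and H2B, was at 172, 160.3 and 174 CPM in WT and at 211, 205 and 197 CPM in scl30a-1 (0.28, SE 0.0517, adjusted p = 0.00191). FAS1, ASF1B and NRP2 did not overlap between the genotypes. The other genes called higher were UBN1 (0.20), UBN2 (0.31), NRP1 (0.21), SPT16 (0.13), SSRP1 (0.18) and SWC2 (0.29). FAS2 (-0.08), MSI1 (0.10) and ASF1A (-0.13) were among the genes not called.

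Of 6 H3 genes outside the 43, 3 had enough reads to be tested and HTR12, the centromeric H3 gene, was called. That is 33.3% of the 3, beside 41.7% of all genes tested. HTR12 was at 2.74, 2.78 and 2.16 CPM in WT and at 1.299, 1.70 and 1.16 CPM in scl30a-1, all lower, with a change of -0.88 (SE 0.159, adjusted p = 0.00163).

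Among 16 genes of S-phase control and replication, 4 were called higher and 2 lower, with a median log2 fold change of 0.04. The called genes were 37.5% of the list, beside 41.7% of all genes tested. TSO2, a subunit gene of ribonucleotide reductase, was at 296, 288 and 296 CPM in WT and at 199, 224 and 209 CPM in scl30a-1 (-0.48, SE 0.0545, adjusted p = 8.82e-05). E2FC, an E2F factor known as a repressor of cell-cycle genes, was at 8.44, 7.92 and 9.26 CPM in WT and at 12.4, 11.5 and 11.7 CPM in scl30a-1 (0.47, SE 0.0709, adjusted p = 0.000519). RBR1, the retinoblastoma-related protein that binds E2F factors, was at 56.7, 57.3 and 63.1 CPM in WT and at 76.5, 69.0 and 74.9 CPM in scl30a-1 (0.32, SE 0.0587, adjusted p = 0.00195). TSO2, E2FC and RBR1 separated the genotypes. DPB (0.23) and PCNA2 (0.19) were the other genes called higher, and MCM7 (-0.20) the other called lower. The rest were not called, among them MCM2, MCM3, MCM4, MCM5, MCM6, PCNA1 and RNR1.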

How the data were processed

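Per the labels, poly(A) RNA from 3 WT and 3 scl30a-1 samples of germinating seeds was sequenced. The authors deposited, for each library, read counts per gene, which are not normalized. The aligner, the counter and the use of strand are not given in the sources used here. The 6 other columns of values in the table were not used. The genome build was TAIR10, per the submitters' processing notes. Of 33602 loci, 1213 had no value in the table and 8761 had no count in any library.

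The counts were tested with edgeR 4.0.16 (R 4.3.3), with TMM scaling, its default expression filter with a minimum count of 10 (18736 genes kept), the quasi-likelihood F test and Benjamini-Hochberg adjustment over all genes kept. The threshold of a call was an adjusted p of 0.05. CPM was computed from the TMM-scaled library sizes, and RPKM from CPM and the longest RefSeq transcript; RPKM served only to compare or sum genes of different length. The same test was tried on simulated counts beforehand. Alternatives were DESeq2 1.42.0, other scalings and filters, each library left out in turn, a block for the library letter, and only genes with under 10% shared 36-base words. Gene positions, promoters and shared words came from RefSeq (TAIR10.1).

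The genes named with values in each library were, per family, the gene with the highest mean RPKM and up to 3 called genes with the smallest p. Mean RPKM took the place of the authors' length-normalized values, whose columns were left out. Named as well were HTB8, all H3.3 genes and all H1 genes, and up to 3 called genes per comparison list. Other genes named in the text are given by level or fold change. HTB9 and the further genes of the chaperone and S-phase lists were picked after their values were seen. The members and the lists were chosen with earlier results of these data known, and H2B genes other than HTB8 were classed as replication-coupled by convention. Library letters come from the column names and were not treated as pairing: the correlations of same-letter deviations were -0.08, 0.24 and 0.25 for a, b and c. Any pair of libraries of a genotype differed by 5.45 or more in chi-square per degree of freedom, so none was another library sequenced again. Whether libraries shared a seed batch cannot be told from this value.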

Additional observations from a re-analysis of the deposited data

How the results depend on the processing

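Under the other scalings, filters and tools, 18 or 19 histone genes were called, 17 or 18 of them shared with the 18 reported. When each library was left out in turn, the calls ranged from 10 to 20 histone genes (6 to 8 higher, 4 to 14 lower), from 4 to 13 replication-coupled genes (3 to 5 higher, 1 to 10 lower) and from 5825 to 8075 of all genes, while called variant genes stayed at 5. Without WT a, WT b and scl30a-1 a, 7, 4 and 4 histone genes were called lower, against 11 reported; the cause beyond the smaller number of libraries was not tested. With only genes holding under 10% shared words, 15 were called (7 higher, 8 lower), of which 4 were replication-coupled genes called lower; fewer genes were counted. With the replicate block by letter, 25 histone genes were called, 11 higher and 14 lower, and 8940 of all genes; the letters are not known to pair libraries, WT a did not correlate best with its own letter, and AT1G06760 (0.19) and HTA3 (0.16) were called. A planned fit of the authors' length-normalized values with limma was not run, since only the count columns were used.

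Of 351 fold changes of 27 named histone genes under 13 alternatives, 316 kept direction and call, 22 kept the direction and lost the call, 2 gained it and 11 changed sign, all of genes not called. Leaving out each library in turn gave -0.0613 to 0.0350 for HTA10 (above 0 without WT a, scl30a-1 a or scl30a-1 c), -0.0764 to 0.0071 for HTA9 (above 0 without WT a), -0.0341 to 0.143 for HTB4 and -0.0320 to 0.0559 for AT4G40030 (both below 0 without WT c or scl30a-1 b). AT4G40030 was at -0.0259 with library totals alone, and upper-quartile scaling placed it at -0.0458 and AT4G40040 at -0.0014. Depth limits AT3G46320, AT3G53650 and AT5G02570, with under 100 counts in each library, and HTA4, with none. Of these, AT3G46320 was called, as 1 of the 3 H4 genes called lower.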

Other observations

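The layout of the genes gives values that enter no comparison above. Of the 23 histone genes with a single exon in their longest transcript, 4 were called higher and 7 lower (47.8% called). Of the 19 tested genes with introns 3 were higher and 4 lower (36.8%). Both shares lie near the 41.7% of all genes tested. Several genes lie close together in the RefSeq annotation. AT2G28720 (H2B, 0.80) and HIS4 (H4, -0.37) are convergent, with 1536 bases and 2 other genes between them, and were called in opposite directions. The H3.3 genes AT4G40030 (0.02) and AT4G40040 (0.07) lie 42 bases apart in the same direction, and neither was called. The H3.1 genes AT5G10390 (-0.28) and AT5G10400 (-0.18) lie 577 bases apart in the same direction, and the first was called.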
